A study of Mus musculus with 6 samples.

Results

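The 43 interferon-stimulated antiviral genes listed here are the sensors, signalling proteins and effectors that cells switch on when interferon is present. They were taken as a fixed list of symbols, chosen with earlier results of these data known. Each was read from a probe set annotated with that symbol alone. On that rule 38 of the 43 were measured, among 19938 genes in all. Isg15, Ifi47, Igtp and Irgm2 lie only on probe sets that carry several symbols, and Ifi44 is not named in the annotation under that symbol, so no value is given for these 5.

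Marrow cells from mice were infected with a retrovirus and sorted for a fluorescent reporter 72 hours later. In the MN1 group, the vector carried MN1, a transcriptional coregulator that is often highly expressed in myeloid leukaemia. In the empty vector group it was MSCV-IRES-GFP, with no insert. There were 3 arrays of each kind, and 3 independent experiments per the series description. Both groups therefore share the retroviral transduction, the reporter and the sort, and no untransduced cells were measured. The labels of the samples give the reporter as GFP, whereas the design text gives YFP. No source used here gives the mouse strain, age and sex, the species of the MN1 cDNA or any pooling of animals. Whether samples of a group came from separate animals is likewise not given, so p-values measure the spread between these samples.

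Type I interferons bind a receptor made of Ifnar1 and Ifnar2, which signals through the kinases Jak1 and Tyk2. A complex that holds Stat2 and Irf9 then binds the interferon-stimulated response element, a DNA motif in the promoters of many genes listed here. The proteins made either detect viral RNA, destroy or sequester it, block viral entry or exit, or adjust the signal itself. Interferon acts on marrow too, where it can draw stem cells out of quiescence.

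On the arrays, the transduced gene was higher with MN1: Mn1 measured 6.47, 6.62 and 6.08 against 5.34, 5.41 and 4.80 on the log2 scale, and the groups did not overlap. The 8 haematopoietic markers fixed for the check of the tissue included Ptprc, the pan-leukocyte antigen CD45, at 10.25 to 10.82, and Laptm5 at 12.83 to 13.29. The median of all probe sets lay between 5.82 and 6.01 on the 6 arrays. The Y-linked genes differed between arrays. Eif2s3y measured 3.43 on empty vector replicate 2 and 6.72 to 8.57 on the other 5 arrays, and Uty and Kdm5d were also lowest there.

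The response element can be read in the reference sequence in front of several members, and 5 windows are shown: those of 4 members described below as higher with MN1, and that of Ifitm1, which was lower. Each runs from 200 bases before to 30 after the start of the transcript, 5′ to 3′ on the gene's strand, from RefSeq (GRCm38.p6). Capitals mark each match, on either strand, to the core of the response element, searched as GAAA, any 2 bases and GAAA again.
Ifit3 (chr19:34583329-34583558, plus strand): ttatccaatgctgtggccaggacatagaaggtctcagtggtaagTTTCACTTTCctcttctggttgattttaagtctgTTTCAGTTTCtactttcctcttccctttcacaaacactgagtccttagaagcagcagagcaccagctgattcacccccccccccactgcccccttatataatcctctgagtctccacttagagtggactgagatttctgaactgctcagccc
Oas3 (chr5:120777630-120777859, minus strand): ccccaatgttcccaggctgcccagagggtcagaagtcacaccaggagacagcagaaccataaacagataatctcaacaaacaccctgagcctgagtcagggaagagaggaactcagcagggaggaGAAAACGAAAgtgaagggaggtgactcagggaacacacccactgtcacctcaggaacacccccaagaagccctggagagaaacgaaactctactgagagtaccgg
Bst2 (chr8:71537443-71537672, minus strand): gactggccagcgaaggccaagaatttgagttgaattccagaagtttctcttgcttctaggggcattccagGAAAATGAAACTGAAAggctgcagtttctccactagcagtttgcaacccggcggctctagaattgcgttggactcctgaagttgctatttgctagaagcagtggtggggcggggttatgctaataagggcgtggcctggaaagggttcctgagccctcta
Ifitm3 (chr7:141010715-141010944, minus strand): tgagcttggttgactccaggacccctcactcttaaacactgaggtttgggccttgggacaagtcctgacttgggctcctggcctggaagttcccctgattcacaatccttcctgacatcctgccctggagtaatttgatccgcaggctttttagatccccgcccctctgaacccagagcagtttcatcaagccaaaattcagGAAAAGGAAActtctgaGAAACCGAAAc
Ifitm1 (chr7:140967876-140968105, plus strand): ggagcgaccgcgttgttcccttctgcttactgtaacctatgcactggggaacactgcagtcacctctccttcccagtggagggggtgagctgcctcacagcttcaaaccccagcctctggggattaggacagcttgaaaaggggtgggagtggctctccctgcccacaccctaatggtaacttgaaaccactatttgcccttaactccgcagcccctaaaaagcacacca
Ifit3 holds 2 separate copies, Bst2 holds 2 that overlap each other, Oas3 holds 1, Ifitm3 holds 2 just after its start, and the Ifitm1 window holds none. Counted from the start of the transcript, the matches begin at positions -156 and -122 in Ifit3 and at -75 in Oas3.

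Over the full table of windows, 250 bases before to 50 after each start, 27 of the 38 measured members had an entry, and 14 of these 27 (51.9%) held this core. The share was 3.89% of the 15614 genes tested on the arrays that had an entry. Overlapping matches were counted. Of the 64 other interferon-induced genes described further on, 53 had an entry, and 19 of these (35.8%) held the core. These shares describe the reference sequence and say nothing about binding in these cells. Nor do the 5 windows shown stand for all members. Oasl2, Ifit2, Parp12, Xaf1 and Tap1, all higher with MN1, held no core in their windows. Ifit1 held 2 and Rsad2 held 1, at log2 differences of only 0.11 and 0.04. The lower members, Ifitm1 and Oasl1, held none. A link between the core and the differences was not tested.

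Setting MN1 against the empty vector asks how these genes differ soon after MN1 enters marrow cells. Of the 38 measured members, 36 were higher with MN1 and 2, Ifitm1 and Oasl1, were lower. Over all 19938 genes 43.3% were higher. The median log2 difference of the members was 0.47, with an interquartile range of 0.24 to 0.71, where that of all genes was -0.03. The members were mostly bright, at a median level percentile of 86.9. With the dimmest genes left out, 35 of 37 members were higher, at a median log2 difference of 0.46. Of the 11963 genes then kept, 57.2% were higher, at a median of 0.04. Only 3 members, Ifit3, Oasl2 and Mx2, were at least 2-fold higher, and the largest difference was 2.24-fold. A difference of 2-fold or more was measured upward for 0.993% of all genes, and downward for 0.381% of them and for no member. By limma, 0 members passed an adjusted p of 0.05 (Benjamini-Hochberg over all genes; 0 of 19938 genes passed, 0% of those tested), and the members' adjusted p values ran from 0.584 to 0.991. Every value below is therefore a measured difference and not a call. At an unadjusted p under 0.05 there were 12 members higher and 1 lower, 34.2% of the 38, beside 8.4% of all genes. That count of 13 was 22 when empty vector replicate 1 was left out, 6 when replicate 2 and 7 when replicate 3 of that group was, and 5 when MN1 replicate 2 or MN1 replicate 3 was.

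**Figure D1:**
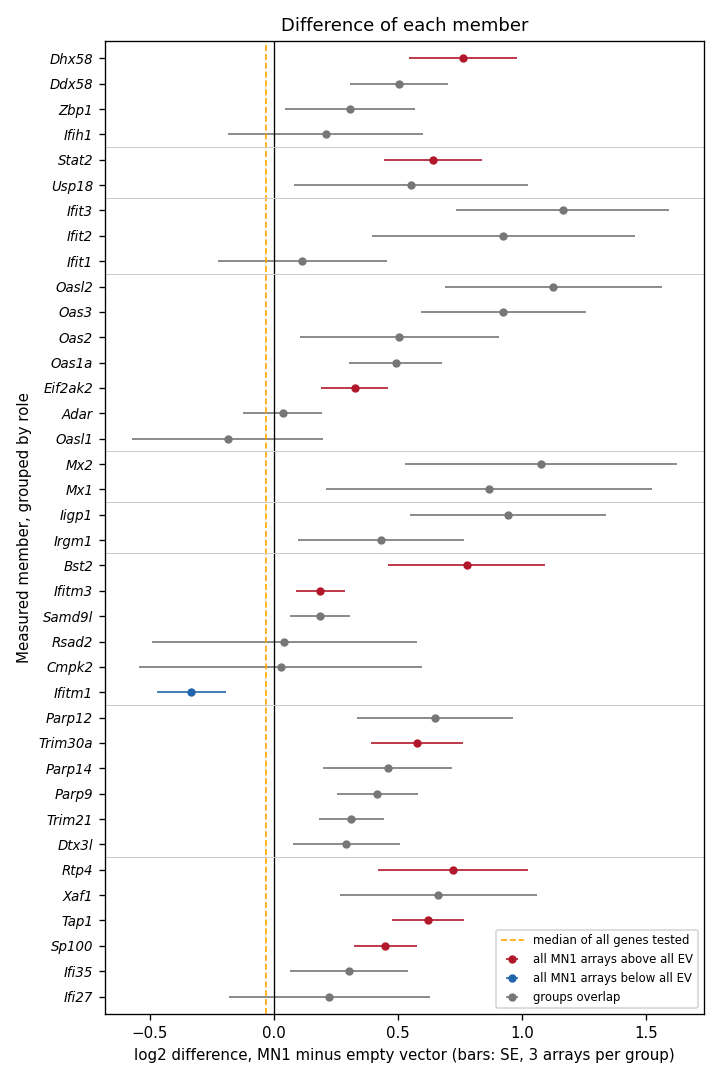
Log2 difference of each of the 38 measured members, MN1 minus empty vector, with its standard error (limma, 3 arrays per group). Red points are the 9 members for which every MN1 array lay above every empty vector array, the blue point is Ifitm1, and the dashed line is the median of all genes at -0.03.

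For 9 members the 3 MN1 arrays all lay above the 3 empty vector arrays (23.7% of the 38, beside 5.71% of all genes), and for 1, Ifitm1, all lay below (beside 10.3% of all genes). For the other 28 the groups overlapped. The spread within the empty vector group was wide: for 33 of 38 members the range over the 3 empty vector arrays exceeded the difference between the groups, which was so for 79.2% of all genes. The median SD of a member was 0.50 over the empty vector arrays and 0.31 over the MN1 arrays, where the median SD of all genes was 0.16 in each group.

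The sensors of viral RNA were all higher with MN1, 4 of 4, with a median log2 difference of 0.40. Dhx58 encodes LGP2, a helicase that tunes the other RNA sensors. Its levels were 8.79, 9.48 and 9.36 with MN1 and 8.73, 8.30 and 8.31 with the empty vector. The groups did not overlap, although MN1 replicate 1 and empty vector replicate 1 lay almost level. The difference was 0.76 ± 0.22 (SE, n = 3 per group; adjusted p = 0.584, limma). Ddx58 encodes RIG-I, which detects viral RNA by its triphosphate end. Its values were 10.24, 10.81 and 10.82 with MN1 and 10.373, 10.002 and 9.989 with the empty vector, with MN1 replicate 1 below empty vector replicate 1. The difference was 0.50 ± 0.20. Ifih1, the sensor MDA5 of long double-stranded RNA, differed by 0.21 ± 0.39, and Zbp1, a sensor of Z-form nucleic acid that can trigger necroptosis, by 0.31 ± 0.26. Both had overlapping groups.

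Among the genes that carry or limit the signal, Stat2 encodes a transcription factor of the interferon response complex. It measured 9.97, 9.90 and 9.96 with MN1 and 9.65, 9.38 and 8.87 with the empty vector. All MN1 arrays lay above, and they spread far less than the controls (SD 0.04 against 0.39). The difference was 0.64 ± 0.20 (SE; adjusted p = 0.584, limma). Usp18, which removes Isg15 from proteins and damps the receptor, differed by 0.55 ± 0.47. On empty vector replicate 1 (10.47) it lay between MN1 replicates 2 and 3 (10.31 and 10.83).

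The IFIT proteins bind viral RNA that lacks the host cap structure and keep it from translation. All 3 were higher with MN1, and all 3 overlapped. Ifit3 measured 7.92, 9.19 and 8.25 with MN1 and 7.99, 6.70 and 7.17 with the empty vector. MN1 replicate 2 stood highest, and empty vector replicate 1 lay just above MN1 replicate 1. Its difference, 1.16 ± 0.43 (SE, log2), was the largest of all measured members. Ifit2 measured 9.32, 9.96 and 8.57 against 9.31, 8.29 and 7.48, a difference of 0.92 ± 0.53. Ifit1 differed by only 0.11 ± 0.34, at 8.97, 9.81 and 8.81 against 9.53, 8.57 and 9.17.

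The oligoadenylate synthetases make the messenger that activates the nuclease RNase L, and the kinase and deaminase grouped with them also act on double-stranded RNA. Of these 7 genes 6 were higher. Oasl2, an Oas-like gene, measured 10.18, 10.91 and 10.17 with MN1 and 10.18, 8.51 and 9.20 with the empty vector. Empty vector replicate 1 was level with MN1 replicates 1 and 3, and the difference of 1.13 ± 0.44 (SE) came with a gap of 1.67 between the highest and lowest control. Oas3, the largest synthetase, measured 9.72, 10.40 and 10.10 against 9.78, 8.55 and 9.11, a difference of 0.92 ± 0.33. Oas1a measured 8.88, 9.27 and 8.77 against 8.78, 8.31 and 8.37, a difference of 0.49 ± 0.19, with MN1 replicate 3 just under empty vector replicate 1. Oas2 differed by 0.51 ± 0.40. Eif2ak2, the kinase PKR that stops translation, was higher on every MN1 array by a small margin, at 8.95, 8.90 and 8.86 against 8.78, 8.64 and 8.32. Adar, which edits adenosine to inosine in double-stranded RNA, differed by 0.03 ± 0.16, and its sign turned after quantile normalization (-0.0379).

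Oasl1, which restrains translation of Irf7 in mice, stood apart from its neighbour Oasl2. It measured 9.64, 9.42 and 9.06 with MN1 and 9.83, 8.69 and 10.17 with the empty vector, so the MN1 arrays lay inside the range of the controls. The difference was -0.19 ± 0.39 (SE), and without empty vector replicate 3 it was 0.12. In the mouse gene table Oasl2 and Oasl1 lie next to each other.

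The Mx proteins are dynamin-like GTPases that trap viral nucleocapsids; many inbred mouse strains carry defective Mx1 alleles, and the strain used here is not given. Mx2 measured 8.29, 7.52 and 6.95 with MN1 and 7.24, 5.40 and 6.90 with the empty vector, a difference of 1.07 ± 0.55 (SE). Mx1 measured 8.66, 7.70 and 6.82 against 8.10, 6.03 and 6.46, a difference of 0.87 ± 0.66. Both were highest on MN1 replicate 1 and lowest on empty vector replicate 2, and the controls spanned 1.84 and 2.07 on the log2 scale, more than the differences themselves.

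Of the immunity-related GTPases, which coat the vacuoles of intracellular parasites and are induced mainly by interferon gamma, only Iigp1 and Irgm1 could be read. Iigp1 measured 5.78, 6.45 and 5.95 with MN1 and 5.91, 4.37 and 5.06 with the empty vector, a difference of 0.94 ± 0.39 (SE). It is the 1 member among the dimmest 40% of genes. Irgm1 differed by 0.43 ± 0.33. Their median of 0.69 was 1.07 without empty vector replicate 1 and 0.45 without empty vector replicate 2.

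**Figure D2:**
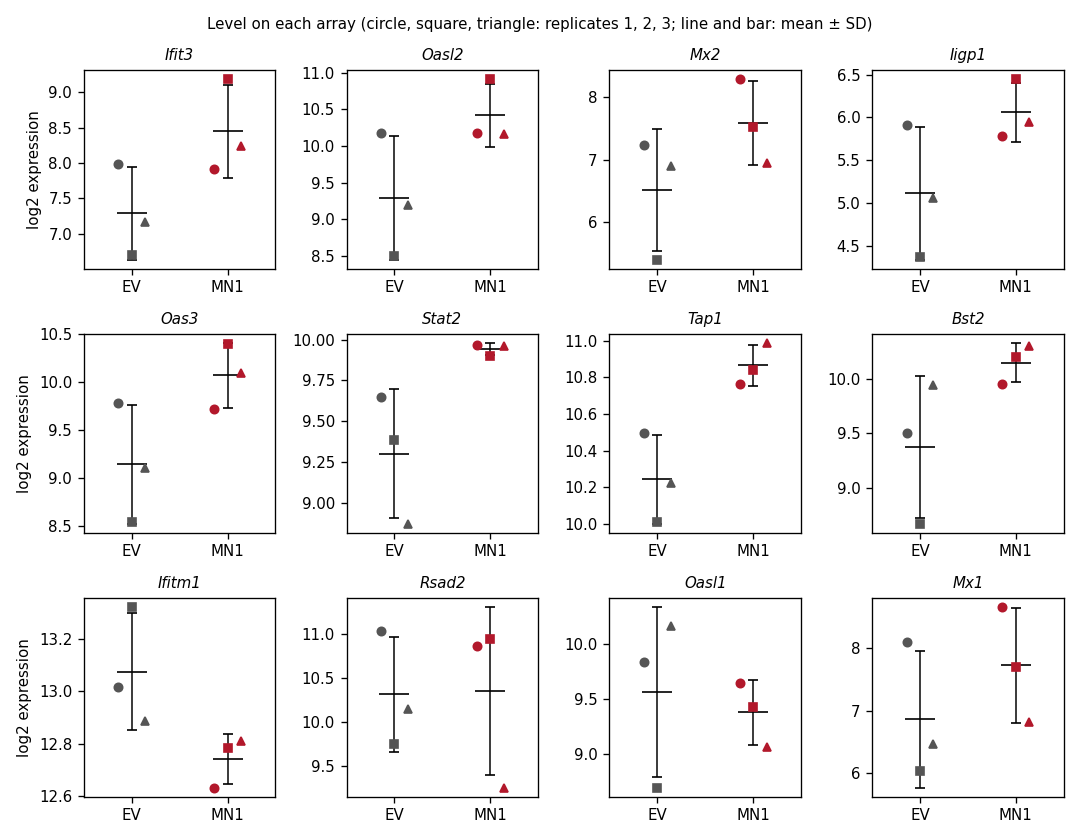
Log2 level of 12 members on each array; circles, squares and triangles are replicates 1, 2 and 3, the line is the group mean and the bar its SD (n = 3). Stat2, Tap1 and, by a very small margin, Bst2 separate the groups upward and Ifitm1 downward. The empty vector circle of Ifit3, Oasl2 and Iigp1 lies at or above the MN1 circle.

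The effectors that act at membranes or on nucleotides were the least uniform, with 5 of 6 higher and an overall median log2 difference of 0.11. Bst2, or tetherin, holds budding virions on the cell surface. It measured 9.95, 10.20 and 10.30 with MN1 and 9.50, 8.67 and 9.95 with the empty vector, a difference of 0.78 ± 0.32 (SE). The groups did not overlap, but MN1 replicate 1 (9.9498) and empty vector replicate 3 (9.9468) were almost level. The interferon-induced transmembrane proteins, which hinder fusion of incoming virions, went different ways. Ifitm3 measured 12.98, 12.92 and 13.03 with MN1 and 12.67, 12.88 and 12.81 with the empty vector, a small difference of 0.19 ± 0.10 with no overlap. Ifitm1 measured 12.63, 12.78 and 12.81 against 13.01, 13.32 and 12.89, a difference of -0.33 ± 0.14 (adjusted p = 0.584, limma). It is the only measured member with every MN1 array below the controls, and its second probe set also differed downward, by -0.47.

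Rsad2 and Cmpk2 lie side by side in the mouse genome. Rsad2 encodes viperin, which makes a chain-terminating nucleotide, and Cmpk2 a mitochondrial nucleotide kinase. Rsad2 measured 10.87, 10.94 and 9.25 with MN1 and 11.04, 9.75 and 10.15 with the empty vector. Cmpk2 measured 9.93, 10.36 and 8.52 against 10.47, 9.16 and 9.08. Both were high on empty vector replicate 1 and on MN1 replicates 1 and 2, and lowest on MN1 replicate 3. The group differences were 0.04 ± 0.53 and 0.03 ± 0.57, and both turned negative after quantile normalization (-0.0237 and -0.0656). Samd9l, whose human counterpart is mutated in marrow failure, differed by 0.19 ± 0.12.

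All 6 genes of ADP-ribosylation and ubiquitin transfer were higher, with a median log2 difference of 0.44. Trim30a, a regulator of inflammatory signalling in mice, measured 10.82, 10.95 and 11.22 with MN1 and 10.71, 10.11 and 10.43 with the empty vector. The groups did not overlap, and the difference was 0.58 ± 0.18 (SE; adjusted p = 0.584, limma). Parp12, an antiviral mono-ADP-ribosyltransferase, ran from 9.85 (replicate 1) to 10.63 (replicate 2) with MN1 and measured 10.11, 9.18 and 9.25 on the controls, a difference of 0.65 ± 0.31. Parp9 and Dtx3l, partners in one ubiquitin ligase complex, overlap each other in the gene table, and Parp14 is the next protein-coding gene there. Parp9 measured 8.80, 9.12 and 9.21 against 8.89, 8.46 and 8.54, a difference of 0.42 ± 0.16. Dtx3l differed by 0.29 ± 0.22 and Parp14 by 0.46 ± 0.26. Trim21, the cytosolic antibody receptor, differed by 0.31 ± 0.13.

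The remaining members were all higher, 6 of 6, and 3 of them did not overlap. Tap1, a subunit of the peptide transporter for MHC class I, measured 10.77, 10.84 and 10.99 with MN1 and 10.49, 10.01 and 10.23 with the empty vector. Its difference of 0.62 ± 0.15 (SE) had the smallest unadjusted p of the members, 0.00461 (adjusted p = 0.584, limma). Sp100, a nuclear body protein, measured 9.92, 9.95 and 10.17 against 9.37, 9.62 and 9.69, a difference of 0.45 ± 0.13. Rtp4, a receptor chaperone, was almost level over the MN1 arrays at 10.79, 10.76 and 10.86, while the controls measured 10.56, 9.36 and 10.33. Its difference was 0.72 ± 0.30. Xaf1, which counters an inhibitor of apoptosis, measured 8.47, 8.66 and 8.62 against 8.79, 7.10 and 7.88, a difference of 0.66 ± 0.40. Ifi35 differed by 0.30 ± 0.24 and Ifi27 by 0.22 ± 0.40.

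The members varied together from array to array, and this variation was not only between the groups. The mean of the 38 members was 9.54, 9.81 and 9.51 on the MN1 arrays and 9.57, 8.76 and 9.09 on the empty vector arrays. Empty vector replicate 1 thus lay within the range of the MN1 arrays. Among the controls, replicate 1 was the highest for 30 of 38 members and replicate 2 the lowest for 26. Over all genes these arrays were the highest and the lowest of the controls for 30.7% and 28.6%.

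**Figure D3:**
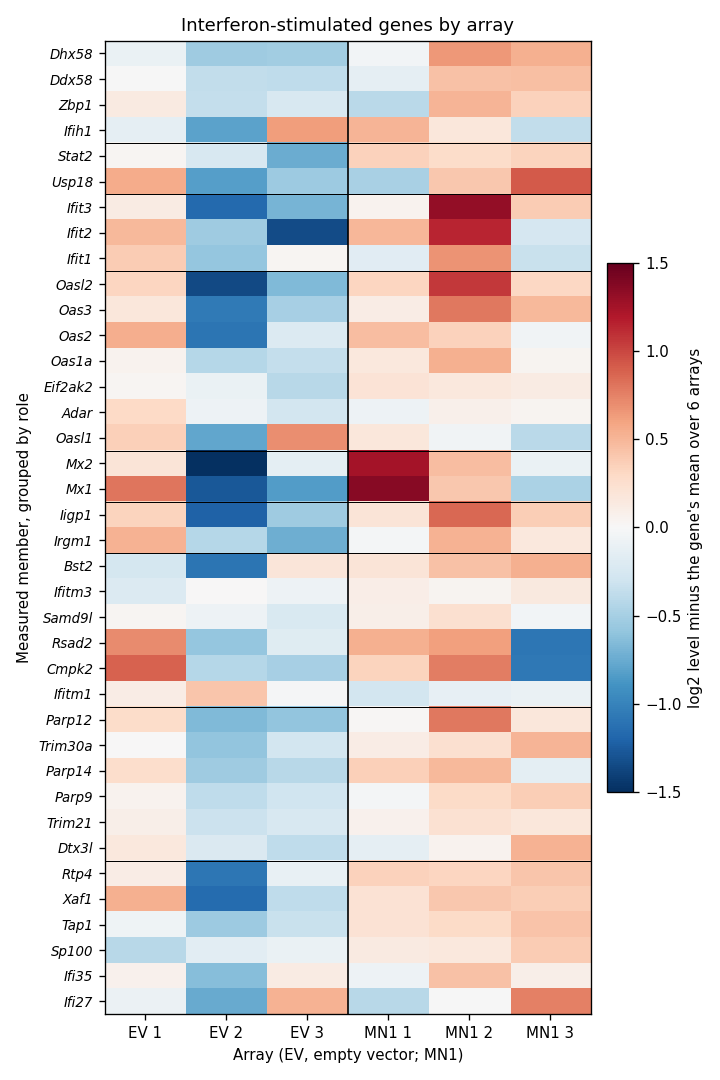
Log2 level of each measured member on each array minus that gene's mean over the 6 arrays, grouped by role; EV is empty vector. Blue fills most of the columns of empty vector replicates 2 and 3, while the column of empty vector replicate 1 is mostly pale to red, like those of MN1.

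Set array against array, 35, 37 and 35 of 38 members were higher on MN1 replicates 1, 2 and 3 than on empty vector replicate 2. Against empty vector replicate 3 the counts were 31, 34 and 31. Against empty vector replicate 1 they were 16, 28 and 20. Over all genes the share that was higher on the MN1 array ran from 40% to 51% in these comparisons. As a description over 6 arrays, which share their normalization, the median correlation between pairs of members was 0.60 (703 pairs), and 0.49 after the group means were taken out. For a regular sample of 1994 genes of the table it was 0.01 both ways. Oasl2, Iigp1 and Oas3 followed the mean of the other members most closely, at correlations of 1.00, 0.99 and 0.97. Ifitm1 ran against it (-0.75), and Ifitm3 (0.11), Oasl1 (0.26) and Ifi27 (0.27) followed it least.

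Markers of cell types moved with the arrays. Of 12 granulocyte markers, 11 were lower and 1 higher with MN1, at a median log2 difference of -1.31, and for all 12 the groups overlapped. Their mean level was 12.06 on empty vector replicate 2, where the members were lowest, and ran from 8.60 to 10.91 on the other controls and from 8.94 to 10.07 on the MN1 arrays. Of 9 monocyte and macrophage markers, 6 were higher and 3 lower, at a median of 0.46, and their mean level was 9.32 to 9.88 on the controls and 9.95 to 10.51 with MN1. For 4 of the 9 every MN1 array lay above every control (beside 5.71% of all genes). The complement gene C1qa was the farthest apart among these, at 11.62, 10.05 and 9.96 against 9.37, 7.58 and 9.40. Plasmacytoid dendritic cells are a main source of interferon. Of their 6 markers 2 were higher and 4 lower, with mean deviations of -0.41 to 0.56 on the controls and -0.32 to 0.44 with MN1 (log2), and the defining marker Siglech measured only 4.83 to 5.50. Of 6 erythroid markers, 5 were lower and 1 higher, at a median of -0.61. For those 5 every MN1 array lay below every control (beside 10.3% of all genes). At an unadjusted p under 0.05 by limma, 3 were lower (beside 4.23% of all genes). The mean level of the erythroid markers was 6.78 to 7.03 on the controls and 6.01 to 6.55 with MN1. Of 8 T and NK cell markers, 7 were lower, at a median of -0.33, with 2 below every control (beside 10.3% of all genes). Their mean levels were 5.38 to 5.66 on the controls and 4.98 to 5.23 with MN1. These markers were mostly dim, at a median level percentile of 21.3. Over all genes 43.3% were higher, and 57.2% with the dimmest genes left out, so dim genes were more often lower. Of 8 stromal and endothelial markers, 7 were lower, at a median of -0.13, with 3 below every control (beside 10.3% of all genes). Of 7 B lineage markers, 4 were higher and 3 lower, at a median of 0.45, and all 7 overlapped. None of the markers passed an adjusted p of 0.05 (limma). The part of cell type make-up in the members' differences was not tested. In sorted bulk cells, more cells of a type and more RNA per cell cannot be told apart. With the mean of Eif2s3y, Uty and Kdm5d as a covariate, 34 of 38 members were higher, the median log2 difference was 0.36, and 5 members had an unadjusted p under 0.05 (beside 3.74% of all genes).

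**Figure D4:**
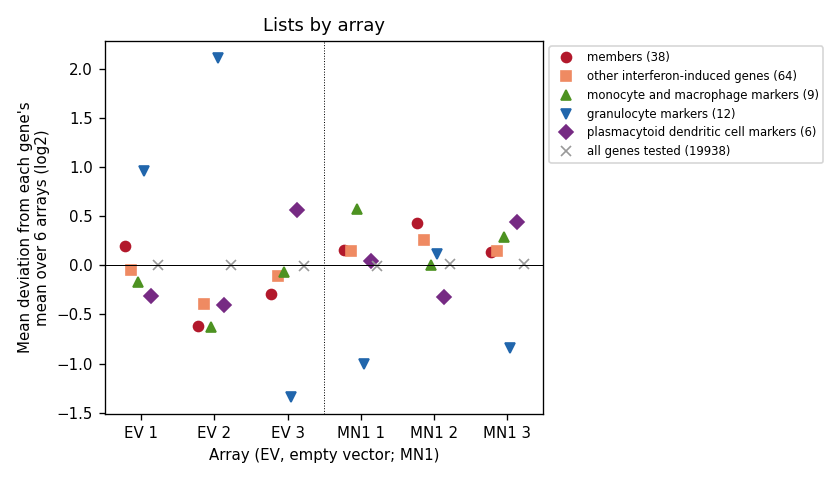
Mean deviation of each list from its genes' means over the 6 arrays (log2), by array; EV is empty vector, and the number of genes is in brackets. The members lie at -0.62 and -0.29 on empty vector replicates 2 and 3 and between 0.13 and 0.43 on the other arrays, while granulocyte markers reach 2.11 on empty vector replicate 2.

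Upstream of the members, the interferon genes as a list were not higher. Of 15 measured ligand genes 13 were lower with MN1 and 2 higher, and the median log2 difference was -0.18. For 4 of the 15 every MN1 array lay below every control (beside 10.3% of all genes). The ligand genes were mostly dim, at a median level percentile of 20.5. Over all genes 43.3% were higher, and 57.2% with the dimmest genes left out. The share among dim genes alone was not computed, but it must lie below 43.3%, since leaving them out raised the share. The count of ligand genes is therefore not set against genes of like level. Whether interferon production differed was not tested. Ifna2 measured 4.98, 5.11 and 4.92 with MN1 against 5.89, 5.21 and 5.60, a difference of -0.57 ± 0.18 (SE). Ifna5 differed by -0.34 ± 0.19, Ifnab by -0.28 ± 0.16 and Ifng, interferon gamma, by -0.27 ± 0.14. Ifnb1, interferon beta, differed by -0.13 ± 0.22 at 3.87 to 4.58, and values this dim are pulled together by the normalization. Of 6 receptor genes 4 were higher and 2 lower. For 3 of the 6 every MN1 array lay above every control (beside 5.71% of all genes). Both chains of the type I receptor were higher on every MN1 array: Ifnar2 by 0.53 ± 0.17 and Ifnar1 by 0.32 ± 0.11. Il10rb, the shared chain of the lambda receptor, differed by 0.58 ± 0.21 and Ifnlr1, its partner, by -0.44 ± 0.31.

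Of 5 Jak and Stat transducers outside the members, 3 were higher and 2 lower; the median log2 difference was 0.12. Jak2, a kinase of the interferon gamma and cytokine receptors, was lower on every MN1 array, at 10.42, 10.28 and 10.71 against 11.06, 10.84 and 10.91, a difference of -0.47 ± 0.14 (SE). Irf9, the DNA-binding subunit of the response complex, differed by 0.35 ± 0.18, Stat3 by 0.16 ± 0.18 and Tyk2 by 0.12 ± 0.24. Of 11 genes that lead to interferon production, 7 were higher and 4 lower; their median was 0.06. Tlr7, the endosomal receptor of single-stranded RNA, measured 8.59, 8.01 and 7.81 against 6.99, 6.40 and 7.27, a difference of 1.25 ± 0.29. Irf7, the interferon-induced factor that amplifies interferon production, measured 11.67, 11.35 and 11.42 against 10.95, 9.61 and 10.77, a difference of 1.04 ± 0.35. Tlr3, the receptor of double-stranded RNA, differed by 0.84 ± 0.14, and Mavs, the mitochondrial adaptor of the RNA sensors, by 0.54 ± 0.20. Of 7 feedback inhibitors 3 were higher and 4 lower; their median was -0.25. Socs1, an inhibitor of Jak kinases, differed by -0.50 ± 0.23, Ptpn11 by 0.36 ± 0.18, Ptpn6 by -0.36 ± 0.34 and Ptpn1 by -0.26 ± 0.13.

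Other interferon-induced genes outside the members were mostly higher too. Of 64 measured, 54 were higher and 10 lower, and the median log2 difference was 0.32. This list was chosen with earlier results of these data known, so it is no independent check on the members. It lay at a median level percentile of 80.4. Over all genes 43.3% were higher, and 57.2% with the dimmest genes left out. At an unadjusted p under 0.05, 18 of the 64 were higher and 0 lower, beside 4.17% and 4.23% of all genes, and 0 passed after adjustment (limma). All 3 genes of Isg15 conjugation were higher: the ligase gene Herc6 by 0.73 ± 0.29 (SE), the conjugating enzyme gene Ube2l6 by 0.41 ± 0.21 and the activating enzyme gene Uba7 by 0.39 ± 0.17. Of 10 genes of peptide loading and the immunoproteasome, 9 were higher and 1 lower. Nlrc5, the transactivator of MHC class I genes, differed by 0.81 ± 0.25, Psmb9 by 0.33 ± 0.18, Psmb8 by 0.32 ± 0.23 and Tap2, the partner of Tap1, by 0.27 ± 0.14. Of the other 51 genes, 42 were higher and 9 lower. Phf11d was the farthest apart, at 7.32, 7.84 and 5.68 against 6.03, 4.56 and 4.84, a difference of 1.80 ± 0.63. Cxcl10, a chemokine gene induced by interferon gamma, went the other way, at 11.52, 9.87 and 8.31 against 10.87, 11.03 and 12.61, a difference of -1.60 ± 0.86 with overlapping groups. Gbp4, a guanylate-binding protein gene, differed by 1.36 ± 0.65, and Slfn1, a Schlafen gene, by 1.32 ± 0.37.

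**Figure D5:**
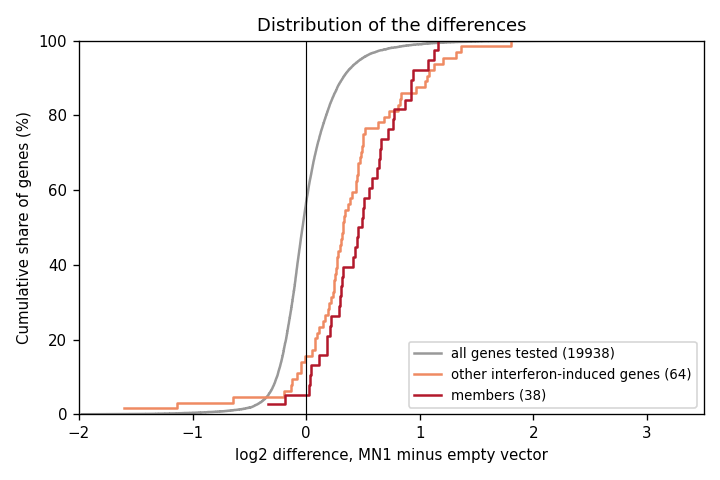
Cumulative share of genes (percent) against the log2 difference, MN1 minus empty vector, for the 38 members, the 64 other interferon-induced genes and all 19938 genes tested. The curve of the members crosses 50% at 0.47, that of the other interferon-induced genes at 0.32 and that of all genes at -0.03.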

How the data were processed

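RNA from sorted marrow cells, 200 ng per sample, was labelled with biotin and hybridised to one-colour Affymetrix whole-transcript arrays, per the labels' protocols. The authors deposited log2 expression values per probe set; RMA is the method named, per the submitters' processing notes. RMA corrects background, normalizes arrays together and summarises probes; it pulls dim values together, so differences of weakly expressed genes are understated. No source used here gives its version or the arrays it was run on together. That the scale is log2 was taken from the range of the values, 2.29 to 14.80. Depth is not defined for arrays, and 3 arrays per group limit the precision. All 6 value columns were used.

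Of 35557 probe sets, 21789 carry 1 gene symbol in the 2016 platform annotation, 1621 carry more than 1 and 12147 have no name there. By gene ID, all 38 measured members were found in the mouse gene table. The probe set with the highest mean was kept for a gene with several (among members, Ifitm1 alone). Close relatives, such as those of Ifit3, Oas1a and Trim30a, may share probes.

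The test was limma (version 3.58.1, R 4.3.3; lmFit, eBayes, two-sided, no block), fitted to all genes, with Benjamini-Hochberg adjustment over all of them and a threshold of 0.05. SE is the moderated standard error. The fit was tested on simulated data. The members, lists and tests were chosen with earlier results of these data known. Values in every array were given for members with an unadjusted p under 0.05 and for the 14 largest in size, except that the MN1 arrays of Parp12 are given by their range; further members were added where their arrays are discussed. The largest in each role group, and up to 4 genes of each pathway list, were named. Deviations of samples with the same replicate number correlated at 0.13, 0.07 and 0.32, so the numbers were not taken as pairs. Other settings tried were quantile normalization, arrays centred on their medians, a replicate block, genes above the dimmest 40% alone, averaged probe sets, a trended robust prior, array weights, a Y-linked covariate and each array left out.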

Additional observations from a re-analysis of the deposited data

How the results depend on the processing

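By limma 0 members and 0 genes passed an adjusted p of 0.05 in the main fit and in all 14 alternatives run, while 5 to 22 members had an unadjusted p under 0.05. The median log2 difference of the members stayed positive, at 0.36 with the Y-linked covariate and between 0.33 and 0.67 with 1 array left out, and 31 to 36 of 38 members were higher when 1 array was left out. The samples share only a replicate number: with the replicate block 10 members had an unadjusted p under 0.05, against 13 without it, 1980 genes did so against 1675, and 1 of 3 empty vector arrays and 2 of 3 MN1 arrays correlated best with the array of their own number in the other group. The number of genes at an unadjusted p under 0.05 was 850 with the dimmest genes removed, where fewer genes are tested, and 746 with the Y-linked covariate, where 5 members were under it. With 1 array left out it ran from 906 to 1953, and that of members from 5 to 22. Directions turned for 7 members: Rsad2, Cmpk2, Adar, Ifi27, Ifih1, Ifit1 and Oasl1. After quantile normalization Rsad2 was -0.0237, Cmpk2 -0.0656 and Adar -0.0379; with array weights Rsad2 was -0.000402 and Cmpk2 -0.0143; with the Y-linked covariate Ifi27 was -0.32 and Ifih1 -0.23. With 1 array left out, Rsad2 ran from -0.25 to 0.59, Cmpk2 from -0.35 to 0.57, Adar from -0.10 to 0.19, Ifi27 from -0.10 to 0.54, Ifih1 from -0.14 to 0.57, Ifit1 from -0.19 to 0.33 and Oasl1 from -0.62 to 0.12. The cause of these turns was not tested.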
